A study of Mus musculus with 4 samples.

Results

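The genes of iron uptake, storage and export were followed in whole tibial bone marrow of obese mice with and without exercise. The group of 9 genes was chosen by name, as Tfrc, Steap3, Slc11a2, Slc11a1, Slc25a37, Fth1, Ftl1, Slc40a1 and Ireb2, out of 55401 annotated genes. All 9 were found, with 61 transcript models, and all of them passed the minimum mean of 0.1 FPKM (fragments per kilobase of transcript, scaled to the fragments of the library). There were 2 RNA-seq libraries of obese mice (Ob) and 2 of obese mice that had exercised (Ob + Exe), all of them male wild-type C57/B6 mice. The mice of both groups received a high-fat diet (HFD) from the age of 8 weeks, and those of Ob + Exe also ran on a treadmill at moderate intensity for 12 weeks. A lean group was not analysed here, so all values are within obesity. The labels do not say whether the 2 libraries of a group came from separate mice. If they did not, the p values measure only technical spread.

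Marrow takes up more iron than most tissues because erythroblasts need it for heme. Transferrin-bound iron enters the cell with the transferrin receptor, is reduced in the endosome, passes to the cytosol, and is then carried into the mitochondrion for heme, stored in ferritin or exported through ferroportin. Macrophages of the marrow return the iron of engulfed red cells by the same exporter. The balance is set largely after transcription. Iron regulatory proteins, one of which is encoded by Ireb2, bind a hairpin in the mRNA called the iron-responsive element (IRE) when iron is low. In a 5′ UTR this blocks translation, and in a 3′ UTR it protects the mRNA from decay.

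Matches to the hairpin are shown to tell which of the genes and transcript models hold its letters. Binding of the iron regulatory proteins to them was not measured. The pattern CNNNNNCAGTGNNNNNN, with the 5 bases after the first C paired to the last 5 (G with T allowed, at most 1 mismatch), was searched on the sense strand of the GENCODE vM21 transcripts of GRCm38. All 61 models had the same length there as in the deposited tables. Of 58797 protein-coding transcripts, 7.75% held the pattern and 0.961% held it with no mismatch. The sequences below run 5′ to 3′ in DNA letters, with the 6 bases of the loop in capitals.
Tfrc, chr16:32631219-32631247, plus strand, 3′ UTR: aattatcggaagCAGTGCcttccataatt
Tfrc, chr16:32631598-32631626, plus strand, 3′ UTR: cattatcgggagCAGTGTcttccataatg
Tfrc, chr16:32631663-32631691, plus strand, 3′ UTR: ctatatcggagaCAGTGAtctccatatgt
Tfrc, chr16:32631710-32631738, plus strand, 3′ UTR: aattatcgggaaCAGTGTttcccataatt
Slc11a2, chr15:100395153-100395181, minus strand, 3′ UTR: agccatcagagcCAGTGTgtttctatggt
Fth1, chr19:9982732-9982760, plus strand, 5′ UTR: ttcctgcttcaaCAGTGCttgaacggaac
Ftl1, chr7:45459779-45459807, minus strand, 5′ UTR: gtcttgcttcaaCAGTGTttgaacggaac
Slc40a1, chr1:45925465-45925493, minus strand, 5′ UTR: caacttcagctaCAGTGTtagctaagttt

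The match of Slc11a2 had 1 mismatch in the stem, and the other 7 had none. The pattern also matched once, with 1 mismatch, in the coding sequence of Slc11a1. It was not found in the models of Steap3, Slc25a37 and Ireb2, which says only that these letters are not there.

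The depth was 44.3 M to 53.0 M read equivalents per library, which were computed as coverage times the length of the transcript over reads of 150 bases. Besides bone marrow, the labels give a fibroblast cell type and a cell line of mesenchymal stem cells. The summed FPKM of 7 fibroblast markers, led by Col1a2 and Thy1, was 16.6 to 20.0 per library, against 54609 to 81715 for 12 erythroid markers, led by Hba-a1 and Hbb-bs, and 28334 to 65962 for 12 neutrophil markers, led by S100a8 and S100a9. Without the globins the erythroid sum was 1674 to 2145, and 6 markers of stroma and osteoblasts summed to 106 to 167. These erythroid and neutrophil markers were thus far above those of fibroblasts and stroma in every library. Summed FPKM does not give the share of cells. Whole-gene FPKM were scaled between libraries and tested with limma. Of 18596 genes tested, 3.71% were called at an unadjusted p under 0.05 with a log2 difference beyond 1, the thresholds of the study. After Benjamini-Hochberg adjustment 0 genes had a p under 0.05 in limma (the lowest was 0.768), and 933 were under 0.05 before it.

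Of the 9 iron genes, 1 was called, Steap3, which was lower in Ob + Exe, and the other 8 did not pass the thresholds. The call of Steap3 held for FPKM but not for read equivalents, and the transcript models behind its FPKM differed between the groups. Such a loss was common, as of the 690 genes called on FPKM only 308 were also called on read equivalents. For 3 of the 9 genes the values of the groups did not overlap, with Steap3 lower and with Ftl1 and Ireb2 higher in Ob + Exe. A separation of the groups in either direction was found for 32.7% of all genes tested. The share of genes called lower was 2.73% over all genes. The median log2 difference of the 9 genes was 0.13, beside -0.02 over all genes, and 8 of the 9 were above 0, beside 47.9% of all genes. The count above 0 was 5 without scaling, 6 under quantile normalization, 5 without Ob replicate 1 and 3 without Ob + Exe replicate 2. The median was -0.14 without Ob + Exe replicate 2 and 0.33 without Ob + Exe replicate 1. With 2 libraries against 2, an exact permutation test of a single gene cannot give a two-sided p below 0.333.

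**Figure D1:**
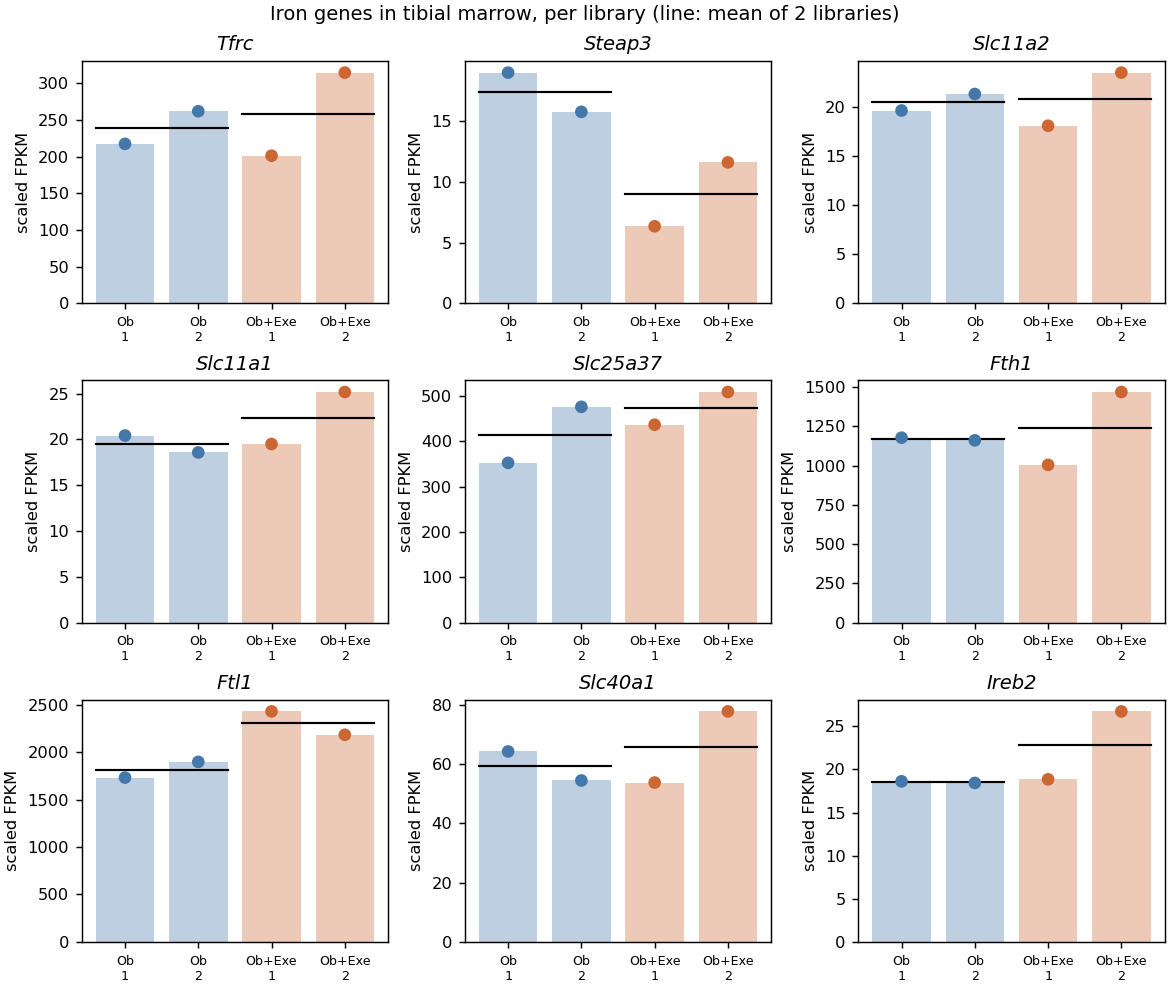
Scaled FPKM of the 9 iron genes (y axes, each from 0) in the 2 Ob and the 2 Ob + Exe libraries (x axes); points and bars are single libraries and the black line is the mean of 2. The values of the groups are apart for Steap3, Ftl1 and Ireb2 and overlap for the other 6 genes, for which Ob + Exe replicate 2 was the highest library.

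The levels of the genes, which FPKM makes comparable by length, fell into a clear order. Ftl1 was the highest, followed by Fth1, Slc25a37, Tfrc and Slc40a1, and each of these was above the next in 4 of 4 libraries with no overlap of their ranges. Slc11a1, Slc11a2, Ireb2 and Steap3 came last, below Slc40a1 in every library, and the ranges of neighbors among these 4 overlapped. Slc11a2 was above Ireb2 in only 2 of 4 libraries. Ferritin mRNA, Fth1 and Ftl1 together, made up 0.634% and 0.702% of the FPKM of the Ob libraries and 0.794% and 0.736% of the Ob + Exe libraries.

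Tfrc encodes the transferrin receptor, the main entry of iron in erythroblasts. It lies on the plus strand at chr16:32608920-32632794 of GRCm38. Its scaled FPKM was 218 and 262 in Ob, against 201 and 315 with exercise. The Ob + Exe libraries were the lowest and the highest of the 4, so the groups overlapped. The mean of Ob was 240 ± 31.5 (SD, n = 2) and that of Ob + Exe 258 ± 80.2 (SD, n = 2), and the log2 difference was 0.08 (95% interval -0.63 to 0.79, adjusted p = 0.985 in limma). Of 12 erythroid markers, 10 were lower in replicate 1 of Ob + Exe than in replicate 2, as Tfrc was, and 2 were higher. This order was not particular to erythroid markers. The summed FPKM of 12 neutrophil markers was also lower in replicate 1 of Ob + Exe, at 36868, than in replicate 2, at 65962. The share of all genes with this order was not computed. Of the 12 erythroid markers 0 were called, with 10 below 0 and 2 above 0 on the log2 scale and a median of -0.18. Their summed FPKM was 73509 and 73559 in Ob, against 54609 and 81715 with exercise, and 1974, 2098, 1674 and 2145 in the same order without the globins. No defining erythroid marker was at 0 in all libraries. The part of cell composition in the Tfrc values was not tested, and in bulk marrow fewer cells of a type and less RNA per cell cannot be told apart.

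The 4890-base model of Tfrc, which holds the 4 hairpins in its 3′ UTR, carried 82.1% and 77.3% of the FPKM of the gene in Ob, against 67.6% and 87.8% with exercise. A retained-intron model of 3527 bases with the same hairpins carried most of the rest, from 8.23% to 27.3%. The share of the models that hold hairpins was thus high in every library, and the groups overlapped for both models.

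Steap3 encodes the endosomal reductase that turns ferric iron into ferrous iron after uptake with transferrin, and it lies on the minus strand at chr1:120190757-120272705. The scaled FPKM of the gene was 19.0 and 15.8 in Ob, against 6.35 and 11.6 with exercise. The exercised libraries were the lower ones, without overlap. The mean of Ob was 17.4 ± 2.29 (SD, n = 2) and that of Ob + Exe 8.98 ± 3.73 (SD, n = 2), which is a log2 difference of -1.004 (standard error 0.344, unadjusted p = 0.0283, adjusted p = 0.96 in limma). The gene ranked 529 by its p value, and its difference was just beyond the threshold of 1. With size factors from all genes above 0, a setting added after seeing the data, it was -0.9999 and the call was lost. It was also lost with a pseudocount of 1, without the intensity trend, and without Ob replicate 1 (-0.88), Ob replicate 2 (-1.15) or Ob + Exe replicate 1 (-0.58).

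The reads behind these values overlapped between the groups. Per M read equivalents of the library, Steap3 had 70.7 and 60.4 in Ob, against 43.1 and 64.3 with exercise. On read equivalents the log2 difference was -0.25 (adjusted p = 0.959 in limma voom), and Steap3 was not called. The log2 differences on FPKM and on read equivalents lay more than 0.5 apart for 16.2% of all genes tested. The scales differ by the length of the models to which the reads were assigned. In Ob, 90.2% and 93.5% of the FPKM of the gene were on a protein-coding model of 2752 bases (ENSMUST00000112640.7). In Ob + Exe this model held 0% and 19.6%, and a protein-coding model of 5158 bases (ENSMUST00000112641.7) held 100% and 80.4%, beside 6.58% and 6.45% in Ob. The models share 2699 bases and the same coding sequence of 1464 bases. The longer one starts at another first exon and runs 2037 bases further at its 3′ end. FPKM divides reads by length, so that the same reads give a lower value on a longer model. The mean length behind the FPKM was 2895 and 2907 bases in Ob and 5158 and 4686 bases in Ob + Exe, a log2 difference of 0.76. The tables hold 1 coverage value per model and not per exon, so whether the 3′ end or first exon of Steap3 changed with exercise, or the assignment of the reads by StringTie, was not tested.

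**Figure D2:**
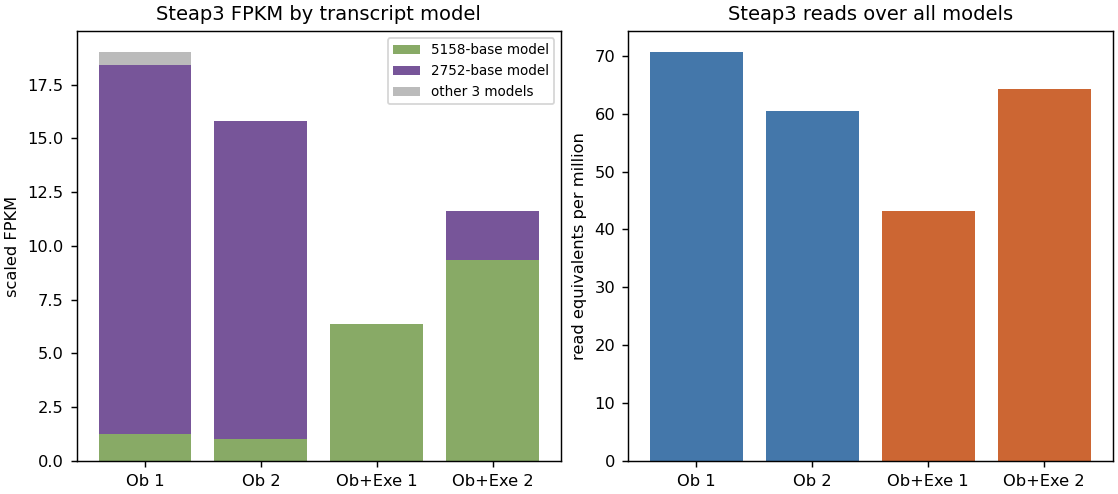
Left, scaled FPKM of Steap3 per library, stacked by transcript model; right, read equivalents of the whole gene per M of the library, with Ob in blue and Ob + Exe in orange (both y axes from 0, x axes the 4 libraries). The 2752-base model fills the Ob bars and the 5158-base model the Ob + Exe bars, while the reads overlap between the groups, with 60.4 and 70.7 in Ob, against 43.1 and 64.3 with exercise.

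Slc11a2 encodes DMT1, which passes ferrous iron from the endosome to the cytosol (minus strand, chr15:100387898-100425072). Its scaled FPKM was 19.6 and 21.3 in Ob, against 18.1 and 23.5 with exercise, with the exercised libraries again at both ends. The log2 difference was 0.01 (95% interval -0.56 to 0.59, adjusted p = 0.997 in limma). The gene gives rise to mRNAs with and without the 3′ hairpin. The 4415-base model with the hairpin held 33.0% and 37.5% of the FPKM of the gene in Ob, against 36.4% and 34.6% with exercise. The 3025-base model without it held 66.5% and 61.2% in Ob, against 63.1% and 64.7% with exercise. The proportion of both forms was thus close in all 4 libraries, and the ranges of the groups overlapped.

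Slc11a1 encodes NRAMP1, the metal transporter of the phagosome in macrophages and neutrophils (plus strand, chr1:74375195-74386062). Its scaled FPKM was 20.4 and 18.6 in Ob, against 19.5 and 25.2 with exercise, and the groups overlapped. The log2 difference was 0.19 (95% interval -0.39 to 0.76, adjusted p = 0.971 in limma). A retained-intron model of 2584 bases carried 54.0% to 74.7% of its FPKM. The protein-coding model of 2315 bases, which shares 2305 bases with it, held 32.0% and 32.7% in Ob and 30.2% in Ob + Exe replicate 2, but was listed at 0 in Ob + Exe replicate 1. The level of the gene in this library did not stand apart. Of 12 neutrophil markers 0 were called and 11 were above 0, with a summed FPKM of 49546 and 28334 in Ob, against 36868 and 65962 with exercise. Their part in the Slc11a1 values was not tested.

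**Figure D3:**
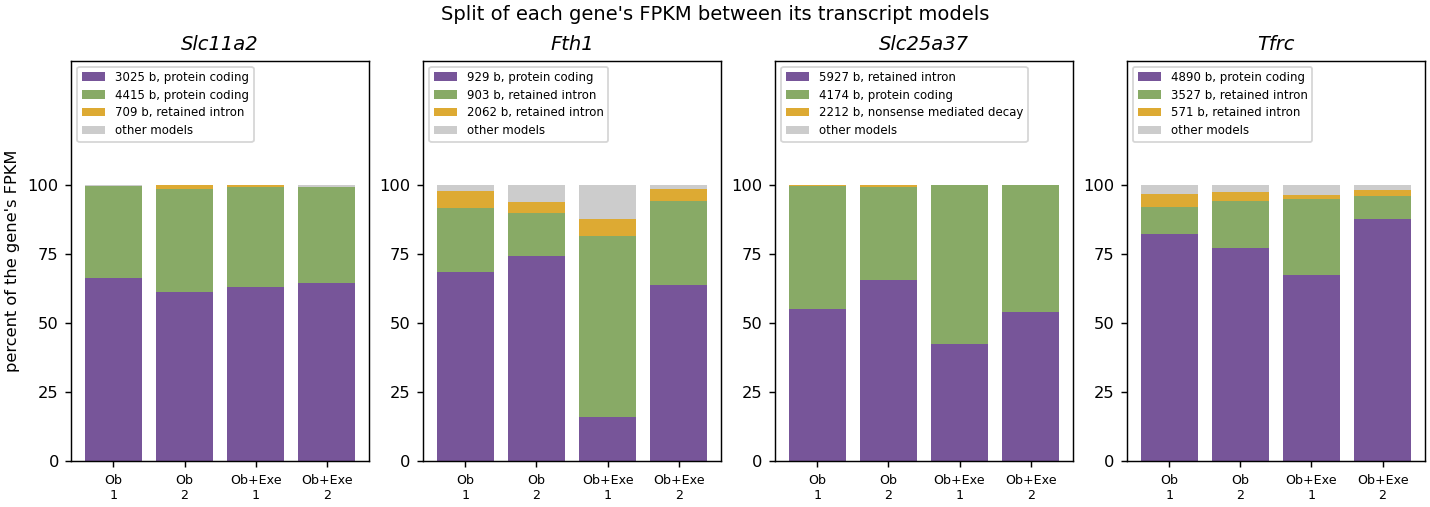
Percent of the FPKM of Slc11a2, Fth1, Slc25a37 and Tfrc (y axis) held by the 3 leading transcript models of each gene and by all others, in each of the 4 libraries (x axes); b stands for bases. The split of Slc11a2 was nearly even across libraries, whereas Fth1 in Ob + Exe replicate 1 had 16.0% on its 929-base model beside 63.7% to 74.4% in the other libraries.

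Slc25a37 encodes mitoferrin-1, which brings iron into the mitochondria of erythroblasts for heme (minus strand, chr14:69241848-69285112). Its scaled FPKM was 353 and 476 in Ob, against 437 and 509 with exercise. The values of the groups were interleaved, and the log2 difference was 0.20 (95% interval -0.43 to 0.84, adjusted p = 0.971 in limma). Its reads were divided between a protein-coding model of 4174 bases and a retained-intron model of 5927 bases, which share 4171 bases. The protein-coding model held 44.8% and 33.9% of the FPKM in Ob, against 57.5% and 46.0% with exercise. In scaled FPKM this model had 158 and 162 in Ob, against 251 and 234 with exercise, so the groups were apart for it, while those of the retained-intron model overlapped at 194 and 312 against 186 and 275. Models were not tested, since StringTie divides reads between models that share nearly all of their bases. The share of all models with groups apart was not computed, and for whole genes it was 32.7%. The ratio of Slc25a37 to Tfrc was 1.62 and 1.82 in Ob, against 2.17 and 1.62 with exercise, again with overlap.

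Ferritin, the iron store of the cell, is built from a heavy chain with ferroxidase activity, encoded by Fth1 (plus strand, chr19:9980598-9985098), and a light chain, encoded by Ftl1 (minus strand, chr7:45457944-45459884). The scaled FPKM of Fth1 was 1178 and 1161 in Ob, against 1005 and 1469 with exercise. The Ob libraries were nearly equal and lay between the exercised ones. The log2 difference was 0.06 (95% interval -0.69 to 0.80, adjusted p = 0.988 in limma). Without scaling it was -0.03, as the signs of Fth1, Tfrc and Slc11a2 depend on the scaling.

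Ftl1 had a scaled FPKM of 1732 and 1897 in Ob, against 2429 and 2182 with exercise. Both exercised libraries were higher. The mean of Ob was 1814 ± 117 (SD, n = 2) and that of Ob + Exe 2306 ± 174 (SD, n = 2), a log2 difference of 0.35 (95% interval -0.38 to 1.07, unadjusted p = 0.283, adjusted p = 0.96 in limma; exact permutation test, two-sided p = 0.333). It was 0.34 on read equivalents, and in no library were more than 5% of its FPKM away from the 968-base coding model that holds the hairpin. The difference was larger than the SD between replicates but did not pass the test. Processed copies of ferritin genes can share its reads. Genes that overlap Ftl1, Slc11a2 or Slc25a37 had at most 0.368 FPKM. The highest of 5 copies found by a ferritin name was Ftl1-ps1, with a deposited FPKM of 9.87 and 13.7 in Ob, against 14.2 and 11.4 with exercise. Copies annotated under other names were not searched for.

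The ratio of the light to the heavy chain mRNA was 1.47 and 1.63 in Ob, against 2.42 and 1.49 with exercise. Replicate 1 of Ob + Exe thus stood apart, with the highest Ftl1 and the lowest Fth1 of the 4 libraries. In the same library the 929-base coding model of Fth1 held 16.0% of the FPKM of the gene, beside 63.7% in Ob + Exe replicate 2. A retained-intron model of 903 bases, which starts inside the hairpin and does not hold it whole, took 65.5% there and 15.6% to 30.5% elsewhere. The read equivalents of Fth1 per M were 1500 and 1517 in Ob, against 1373 and 1681 with exercise, so the low value of this library was also seen without the split into models.

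Slc40a1 encodes ferroportin, the exporter of cellular iron, in marrow mostly of macrophages and erythroid cells (minus strand, chr1:45908068-45926523). Its scaled FPKM was 64.2 and 54.4 in Ob, against 53.7 and 77.7 with exercise, and the groups overlapped. The log2 difference was 0.13 (95% interval -0.50 to 0.76, adjusted p = 0.976 in limma). The 3370-base coding model with the 5′ hairpin carried from 95.9% to 99.0% of it in all libraries. The coding models without the hairpin are only 370 to 451 bases long, with 210 coding bases beside 1710. Reads from the rest of such an mRNA would fall to the longer models. The share therefore does not tell which form was present. In Ob + Exe, 5 of 12 macrophage markers were lower in replicate 1 than in replicate 2, as the exporter was, and 7 were higher. The share of all genes with this order was not computed. The summed FPKM of the macrophage markers, led by Vcam1 and C1qb, was 124 and 147 in Ob, against 152 and 128 with exercise. Of the 12, 0 were called, 7 were below 0 and 5 above 0, with a median log2 difference of -0.11. The groups did not overlap for 7 of 12, beside 32.7% of all genes. The part of macrophages in the Slc40a1 values was not tested. The ratio of Tfrc to Slc40a1, entry to exit, was 3.39 and 4.81 in Ob, against 3.75 and 4.05 with exercise.

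Ireb2 encodes iron regulatory protein 2, which binds iron-responsive elements (plus strand, chr9:54863789-54912530). Its scaled FPKM was 18.6 and 18.4 in Ob, against 18.9 and 26.7 with exercise. Both exercised libraries were higher, but replicate 1 exceeded Ob by less than 1 FPKM, and the separation rests on replicate 2. The log2 difference was 0.28 (95% interval -0.34 to 0.89, adjusted p = 0.96 in limma), and without Ob + Exe replicate 2 it was 0.02. Iron regulatory protein 2 is itself controlled mainly by its breakdown, which RNA-seq does not measure.

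**Figure D4:**
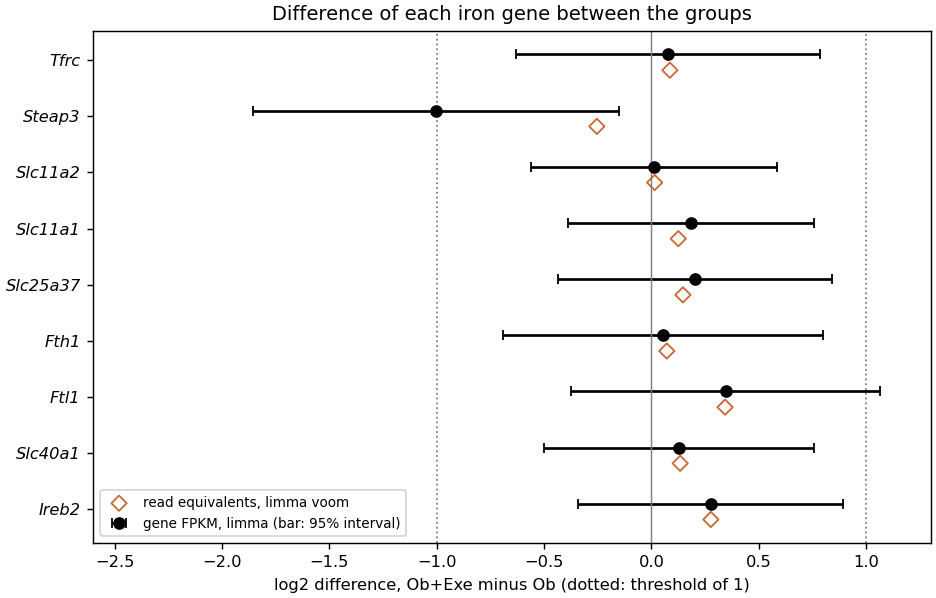
Log2 difference between Ob + Exe and Ob (x axis) for each of the 9 genes (y axis). Black points with bars are the whole-gene FPKM with the 95% interval of limma, and open diamonds are the read equivalents in limma voom. The scales differ for Steap3, at -1.004 and -0.25, and lie close for the other genes.

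The rest of the iron pathway was examined in 44 further genes, all found by name, of which 37 passed the minimum mean. Of the 37, 1 was called, higher in Ob + Exe, beside 0.979% of all genes called higher. The median log2 difference was 0.11, with 21 above 0 and 16 below 0. The called gene was Cp, ceruloplasmin, the copper oxidase that loads exported iron onto transferrin. It had 2.10 and 3.02 FPKM in Ob, against 5.54 and 5.15 with exercise, with no overlap. The log2 difference was 1.05 (standard error 0.333, adjusted p = 0.96 in limma). On read equivalents it was 0.75, and the call was lost in limma voom.

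Among the other genes whose mean FPKM reached 1, the highest difference was that of Hp, haptoglobin, which captures free hemoglobin. Its FPKM was 304 and 205 in Ob, against 388 and 441 with exercise, a log2 difference of 0.73 (95% interval 0.06 to 1.40, adjusted p = 0.96 in limma). Cd163, the haptoglobin-hemoglobin receptor of macrophages, had the lowest value, with 2.80 and 3.39 FPKM in Ob, against 1.50 and 1.91 with exercise (log2 difference -0.83, adjusted p = 0.96 in limma). Hp and Cd163 are named as the highest and lowest of the list, so their opposite directions follow from that choice, and neither was called. The groups did not overlap for 12 of the 37 genes, beside 32.7% of all genes. Hp is also expressed by neutrophils, whose summed markers are given above, and Cd163 is itself 1 of the 12 macrophage markers, and the part of these cells was not tested. The next lowest at this minimum was Isca2, of iron-sulfur cluster assembly, at -0.29.

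Of the 37 genes, 4 had an unadjusted p under 0.05 in limma, beside 5.02% of all genes. Besides Cp and Hp these were Fbxl5 and Trf, which are named here after their values were seen. Fbxl5, the iron-sensing part of the ligase that degrades iron regulatory protein 2, had 49.9 and 41.4 FPKM in Ob, against 64.0 and 83.1 with exercise (log2 difference 0.68, adjusted p = 0.96 in limma). Trf, transferrin, had 24.6 and 22.5 in Ob, against 35.3 and 31.6 with exercise (log2 difference 0.50, adjusted p = 0.96 in limma). By role, the called genes were 0 of 10 in uptake and traffic, 0 of 3 in storage and chaperones, 1 of 5 in export and its hormones, 0 of 3 in sensing, 0 of 9 in mitochondria and iron-sulfur clusters, and 0 of 7 in heme recycling. Hamp2, Steap1 and Ftmt were listed at 0 in every library, and Hamp, which encodes the liver hormone hepcidin, was below the minimum.

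**Figure D5:**
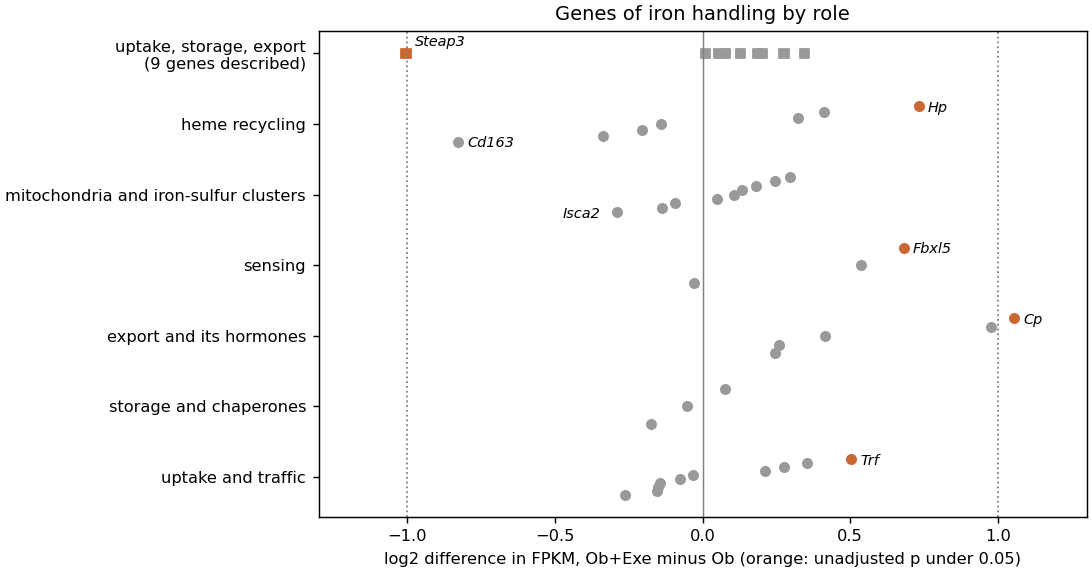
Log2 difference in FPKM between Ob + Exe and Ob (x axis) of the 37 other iron genes, grouped by role (y axis), with the 9 genes described above as squares in the top row; orange marks an unadjusted p under 0.05 and dotted lines the threshold of 1. Only Steap3 and Cp lie beyond 1.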

How the data were processed

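Poly-A RNA was sequenced. Per the paper's methods, reads were trimmed (fastp), cleared of rRNA, aligned to GRCm38 (HISAT2) and filtered (SAMtools), and StringTie assigned them to the transcripts of GENCODE vM25. Versions and strand setting are not given in the sources used here. They deposited FPKM and coverage, a signal not scaled for depth, per transcript. The authors' test, DESeq2, needs read counts.

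Transcript FPKM were summed to genes. Libraries were scaled by median-of-ratios factors (0.949 to 1.03, from genes above 0 in all libraries with a mean FPKM of at least 1). Genes whose mean FPKM reached 0.1 were tested as log2(FPKM + 0.1), a scale that understates changes of low genes, with limma 3.58.1 (R 4.3.3, intensity trend), which was first tested on simulated data. Read equivalents were tested with limma voom. Tables and figures were made with Python 3.11.15, pandas 2.3.3 and matplotlib 3.10.9.

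The genes and lists were written by hand with earlier results of these data known. Named outside the 9 genes were iron genes that were called, the 2 highest and 2 lowest log2 differences at a mean FPKM of at least 1, the 2 leading markers of a list, and the 3 genes closest to Tfrc and to Slc40a1. Marker lists of monocytes, B cells, T and NK cells, megakaryocytes, stroma and skeletal muscle were also summed. The replicate number was not in the design. Across the genes tested, replicate differences of the 2 groups correlated at -0.106 (-0.235 over the 12409 genes whose mean FPKM reached 1), so the numbers were not taken as pairs. Mitochondrial transcripts, 37 in number and listed at 0, were not used.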

Additional observations from a re-analysis of the deposited data

How the results depend on the processing

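Of the 15 alternatives, 8 kept the call of Steap3 and 7 lost it. The number of the 9 iron genes called was 0 with a pseudocount of 1, with limma voom on read equivalents, without the intensity trend, and with size factors from every gene above 0 (added after seeing the data), and it was 0 to 1 with each library left out in turn, with 0 except without Ob + Exe replicate 2. The log2 difference of Steap3 stayed below 0 throughout, from -1.44 without Ob + Exe replicate 2 to -0.25 on read equivalents, and from -1.44 to -0.58 with a library left out. Its adjusted p in limma ranged from 0.296 to 1.0. With the replicate block 1 of the 9 genes was called and 776 genes in all, and with the crossed pairing, added after seeing the data, 1 and 782, so neither block changed a call of these genes.

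All genes called numbered 690, against 267 with a minimum mean FPKM of 1, 224 with a pseudocount of 1 and 1061 without the intensity trend, and from 601 to 1853 with a library left out. The median log2 difference of the 9 genes then ranged from -0.14 to 0.33, the ends given by leaving out replicates 2 and 1 of Ob + Exe. Signs near 0 turned. Without scaling Fth1 was at -0.0279, Slc11a2 at -0.0717 and Tfrc at -0.0062, and under quantile normalization Fth1 was at -0.13 and Slc11a2 at -0.033. With a library left out, Fth1 ranged from -0.23 to 0.33, Tfrc from -0.25 to 0.40, Slc11a2 from -0.18 to 0.20, Slc40a1 from -0.14 to 0.39, Slc25a37 from -0.0221 to 0.41 and Slc11a1 from -0.0058 to 0.37. Leaving out a library leaves 1 in its group, which is then assumed to vary like the other. Ftl1 and Ireb2 kept their sign in every setting. The lowest of the 9 genes in any library had 1911 read equivalents.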

Other observations

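The genes whose pattern over the 4 libraries was closest to that of Tfrc, among 12409 genes whose mean FPKM reached 1, were Jrkl, Gm8430 and Mid1ip1. Jrkl had 11.2 and 13.4 FPKM in Ob, against 10.2 and 16.2 with exercise, at a distance of 0.014 (Euclidean, on centred log2 values), and the other two were at 0.0482 and 0.0546. Closest to Slc40a1 were Cdk13, Api5 and Slc25a46, at 0.0217, 0.025 and 0.0285. With 4 libraries such likeness is a description only.

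Of the other marker lists, those of megakaryocytes and skeletal muscle had the largest medians in size. Over all genes tested, 2.73% were called lower and 0.979% higher in Ob + Exe. The 5 megakaryocyte markers had a median log2 difference of -0.70 with 1 called lower, and summed FPKM of 451 and 327 in Ob, against 368 and 136 with exercise, led by Ppbp and Pf4. Of 5 skeletal muscle markers 4 were tested, with a median of 1.26 and 1 called higher, and sums of 5.10 and 1.41 in Ob, against 7.70 and 7.91 with exercise, led by Acta1 and Tnnt3. These values are near the floor. Ckm and Mb had a mean FPKM of 0.359 and 0.582 and were at 0 in Ob replicate 2. The groups overlapped for Ckm and Tnnt3. The 8 B cell markers, led by Ighm and Cd79b, summed to 1582 and 637 in Ob, against 853 and 888 with exercise, and Ighm made up most of the sum. Of the 8, 7 were below 0, with a median log2 difference of -0.31, and 1 was called lower. The groups did not overlap for 4 of 8, beside 32.7% of all genes. The 6 stromal markers, led by Cxcl12 and Adipoq, summed to 110 and 167 in Ob, against 106 and 166 with exercise, with 1 called lower. The 6 monocyte markers, led by Ly6c2 and F13a1, summed to 532, 460, 472 and 522 in the same order, and the 5 T and NK cell markers, led by Nkg7 and Cd3d, to 61.1, 35.2, 63.8 and 42.6, with 0 called in either. Their part in the values of the iron genes was not tested.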
